A study of Mus musculus with 9 samples.

Results

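Expression of 10 genes of MHC class I antigen presentation was examined in whole osteosarcoma (OS) tumors of genetically engineered mouse models (GEMMs). The genes were chosen by symbol from the 55367 genes counted by RNA-Seq: the class I heavy chains H2-K1 and H2-D1, their light chain B2m, the peptide transporter subunits Tap1 and Tap2, the loading factor Tapbp, the immunoproteasome subunits Psmb8 and Psmb9, the trimming peptidase Erap1 and the transcriptional activator Nlrc5. All 10 passed the filter on low counts. The 4 p53-driven tumors carried the genotype Col2.3-Cre/TrpP53fl/+, and the 5 Myc-knockin tumors combined Cre-Lox-Stop-Lox, (LSL)-c-MycT58A, with p53fl/+. Both groups therefore carried a floxed p53 allele and a Cre driven by Col2.3, an osteoblast-specific promoter, and the Myc-knockin tumors in addition the conditional mutant c-Myc allele. Tumors arose spontaneously and were sequenced whole, so host leukocytes, vessels and stroma were part of every sample. The strain and age of each animal were not given in the sources used here. The study reported a shorter median time to sacrifice for the Myc-knockin model than for the p53-driven model. Age may therefore have differed between the groups, and its part was not tested.

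Class I molecules display peptides from inside the cell to CD8+ T cells. The proteasome cuts cytosolic proteins into peptides, the TAP transporter carries them into the endoplasmic reticulum, ERAP1 trims them there, and tapasin, the product of Tapbp, holds the empty heavy chain with beta 2-microglobulin at the transporter until a peptide fits. Interferon-gamma raises most of these genes and replaces the catalytic subunits of the standard proteasome by those of the immunoproteasome, and NLRC5 is recruited to the promoters of several of them. Almost every nucleated cell makes class I molecules, and leukocytes are among the cells that make most, so in whole tumors fewer cells of a type and less RNA per cell cannot be told apart.

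Of the 10 genes, 7 lie in the major histocompatibility complex on chromosome 17 of the mm10 genome, where Psmb9, Tap1, Psmb8 and Tap2 are neighbors: Psmb9 at chr17:34181987-34187764 on the minus strand, Tap1 at chr17:34187553-34197225, Psmb8 at chr17:34197721-34201454 and Tap2 at chr17:34203527-34216321, all 3 on the plus strand. Tapbp (chr17:33915899-33929292, plus strand) and H2-K1 (chr17:33996017-34000347, minus strand) lie on one side of this block and H2-D1 (chr17:35262730-35267499, plus strand) on the other. The remaining 3 genes, all on plus strands, are B2m at chr2:122147686-122153083, Nlrc5 at chr8:94434356-94527272 and Erap1 at chr13:74639568-74693201. Promoter sequence from RefSeq (GRCm38.p6) was at hand for 8 of the 10 genes, not for Nlrc5 or Tap2. Expression of the genes differed between tumors in unequal amounts. The stretches below are shown because some of these genes share regulatory letters, and Tap1 and Psmb9 share a single short promoter region. Each is the 200 bases before the RefSeq start of transcription, read 5′ to 3′ on the strand of the gene, except that for Tap1 and Psmb9 it is the 225 bases between both starts on the plus strand. They come from chr17:34000348-34000547 (minus strand) for H2-K1, chr17:35262894-35263093 for H2-D1, chr2:122147487-122147686 for B2m, chr17:33919278-33919477 for Tapbp, chr17:34197995-34198194 for Psmb8 and chr17:34187331-34187555 for Tap1 and Psmb9.
H2-K1: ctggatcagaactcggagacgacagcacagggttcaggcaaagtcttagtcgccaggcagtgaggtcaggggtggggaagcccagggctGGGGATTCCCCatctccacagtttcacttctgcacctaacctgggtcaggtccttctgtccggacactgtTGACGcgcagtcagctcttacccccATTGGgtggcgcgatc
H2-D1: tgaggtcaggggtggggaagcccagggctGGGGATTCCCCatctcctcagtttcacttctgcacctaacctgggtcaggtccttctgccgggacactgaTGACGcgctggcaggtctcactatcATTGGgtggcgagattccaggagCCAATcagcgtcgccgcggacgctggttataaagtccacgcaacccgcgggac
B2m: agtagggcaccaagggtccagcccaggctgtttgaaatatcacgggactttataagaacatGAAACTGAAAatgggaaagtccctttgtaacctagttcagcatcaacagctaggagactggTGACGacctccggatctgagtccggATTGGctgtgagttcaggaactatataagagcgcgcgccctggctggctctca
Tapbp: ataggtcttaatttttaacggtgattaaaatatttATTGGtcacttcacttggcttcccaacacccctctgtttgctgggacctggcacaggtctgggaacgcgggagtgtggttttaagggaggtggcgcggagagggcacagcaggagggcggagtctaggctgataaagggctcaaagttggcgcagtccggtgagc
Psmb8: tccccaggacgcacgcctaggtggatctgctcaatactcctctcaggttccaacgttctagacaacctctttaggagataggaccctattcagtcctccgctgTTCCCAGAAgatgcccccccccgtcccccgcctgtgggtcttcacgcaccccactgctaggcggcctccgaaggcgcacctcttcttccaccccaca
Tap1 and Psmb9: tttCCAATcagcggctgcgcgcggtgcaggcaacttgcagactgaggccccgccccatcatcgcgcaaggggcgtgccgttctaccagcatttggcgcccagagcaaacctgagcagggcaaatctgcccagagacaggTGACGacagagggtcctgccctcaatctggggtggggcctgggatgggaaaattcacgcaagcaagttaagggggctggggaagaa
Capitals mark matches, on either strand, to 6 motifs: the interferon-stimulated response element core (GAAA, any 2 bases, GAAA), the class I kappaB site (the 11 letters that come first in capitals in H2-K1), the CCAAT box (CCAAT), the core of the X2 box (TGACG), the interferon-gamma activated site TTCNNNGAA and the E box bound by MYC with MAX (CACGTG). Over windows of 300 bases around the starts of 32851 genes, the shares with a match were 3.44% for the response element core, 0.0304% for the kappaB site, 37.4% for the CCAAT box, 20.8% for the X2 core, 8.30% for the activated site and 7.15% for the E box. H2-K1 and H2-D1 had the same set, 1 kappaB site, 1 X2 core and 2 CCAAT boxes, and aligned without gaps over 240 bases of their windows they matched at 176 positions (73.3%). The response element core was found at B2m and Erap1, and the E box at Erap1 alone. Psmb8 alone held the activated site, and it had none of the other motifs. Tap1 and Psmb9 shared 1 CCAAT box and 1 X2 core in the region between them, and Tapbp held 2 CCAAT boxes in its window and none of the other letters. The second CCAAT box of H2-K1 and of Tapbp lies outside the printed stretch. A match is a description of these letters only. Only exact matches were marked, so an unmarked stretch does not show that a variant of a motif is absent.

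The libraries were unequal in depth and quality. Total counts ranged from 2716322 to 17073285. Reads of 11 satellite-repeat genes took 23.2% to 81.0% of the counts in the p53-driven tumor F187 and the Myc-knockin tumors M351, M408 and M9, and at most 0.0242% in the others. Myc-knockin tumors M624 and M664 stood apart by 91 and 147 counts of Rn7sk against at least 11785 elsewhere. Results are therefore also given without each of these sets of libraries. Myc itself, the engineered gene, was higher in every Myc-knockin tumor, at 577 ± 391 CPM (SD, n = 5) against 54.3 ± 11.3 CPM (SD, n = 4). CPM, the unit of all levels here, is the count scaled to the size of its library after TMM normalization, and 3 counts corresponded to between 0.114 and 2.39 CPM depending on the library.

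RNA of 3 of the 10 class I presentation genes fell in the Myc-knockin tumors, and these act at different steps: Tapbp in peptide loading, Tap2 in transport and Psmb8 in peptide generation. These 3 were called at an edgeR adjusted p under 0.05 with a fold change over 1.5, against 3.00% of the 15365 tested genes called lower, and no gene of the 10 was called higher, against 2.26%. After upper-quartile normalization 2.25% of all genes were called lower and 4.07% higher, and the same 3 of the 10 were called. The fold change was negative for 9 of the 10 genes, with a median log2 fold change of -0.86, where 43.8% of all tested genes were negative with a median of 0.14. The sign of all 10 genes was the same after upper-quartile normalization, which set the median of all genes to 0.24, and after scaling by library size alone, which set it to 0.03. All Myc-knockin tumors lay below all p53-driven tumors for 5 genes (B2m, Tap1, Tap2, Tapbp and Psmb8), an arrangement seen in 7.54% of tested genes. These calls rested on 3 of the 4 p53-driven tumors. Without F187 the same 3 genes were called. Without F325, F331 or F368 edgeR called none of the 10 genes, when only 0.0498%, 0.0375% and 0.0292% of all genes were called. In those fits 5, 5 and 6 of the 10 had an unadjusted p under 0.05. The share of all genes at that unadjusted level was not counted. Such counts, here and below, therefore have no background beside them. Scaling by library size alone also left 0 called (0.885% of all genes), with 3 at an unadjusted p under 0.05. DESeq2 called 4 lower and 1, Nlrc5, higher (17.4% of all genes called in either direction), and limma-voom called 6, all lower (10.8%). Without M624 and M664 edgeR called 4 of the 10, all lower (4.61% of all genes). Without the 4 libraries with satellite reads it called 3 lower and Nlrc5 higher (27.9%). At an adjusted p under 0.1 over all tumors it called 5, of which Nlrc5 was higher (14.6%).

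**Figure D1:**
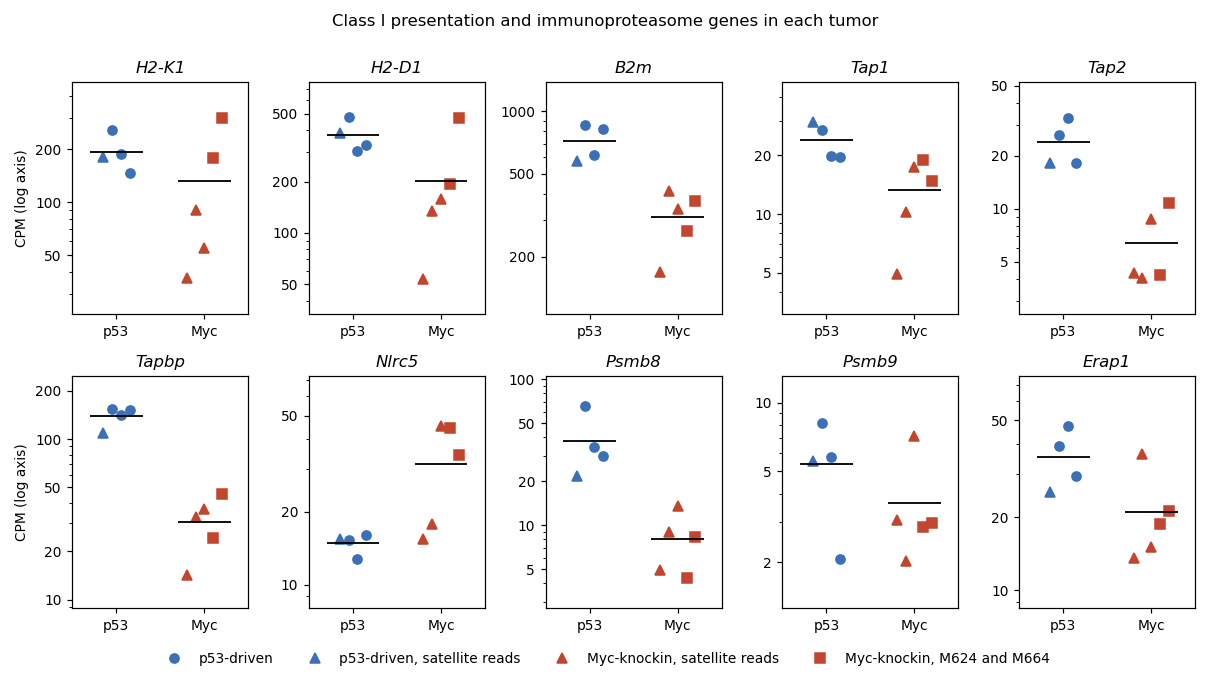
CPM of the 10 genes (log axis) in 4 p53-driven and 5 Myc-knockin tumors, 1 panel per gene with its own axis; each point is 1 tumor, lines are group means, triangles are the 4 libraries with many satellite reads and squares are M624 and M664. The groups did not overlap for B2m, Tap1, Tap2, Tapbp and Psmb8, and for H2-K1 1 square sits among the p53-driven tumors and the other above them, while the triangles of the Myc-knockin group lie below them.

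Tapbp showed the clearest separation. Its level was 109 CPM in F187, 154 in F325, 141 in F331 and 152 in F368, the p53-driven tumors. Among the Myc-knockin tumors it was 14.2 CPM in M351, 32.8 in M408, 36.6 in M9, 24.1 in M624 and 45.5 in M664. The highest Myc-knockin tumor was thus well below the lowest p53-driven one, and the group means were 30.6 ± 12 CPM (SD, n = 5) and 139 ± 21.1 CPM (SD, n = 4). The log2 fold change was -2.18 with a standard error of 0.33 (edgeR adjusted p = 0.0175). It was -2.25 without M624 and M664 and -2.07 without the 4 libraries with satellite reads, and passed the test both times. Without F325, F331 or F368 it was -2.12, -2.16 and -2.15, with edgeR adjusted p values of 0.0647, 0.0640 and 0.0667. Exons of Tapbp overlap those of Gm19412 on the other strand and Zbtb22 on the same strand, and the strand setting of the counting was not stated.

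Psmb8, which replaces the chymotrypsin-like subunit Psmb5 in the immunoproteasome, had the largest fold change of the 10 genes over all 9 tumors. The p53-driven tumors, in the same order, held 21.7, 65.5, 34.3 and 30 CPM. The Myc-knockin tumors held 4.92, 8.97, 13.5, 4.34 and 8.38 CPM. No Myc-knockin tumor reached the lowest p53-driven one. The log2 fold change was -2.28 with a standard error of 0.42 (edgeR adjusted p = 0.0229), -2.02 without M624 and M664, and -2.74 without the libraries with satellite reads. F325 stood highest, and without it the value was -1.87 with an edgeR adjusted p of 0.0813. It was -2.32 without F331 and -2.41 without F368, with edgeR adjusted p values of 0.0782 and 0.0714. The lowest level, in M624, rested on 114 reads, with 0.148 expected from genomic background. Levels in M351 and M9 rested on few reads: 8 in M351, of which 3.80 could be expected from background, and 17 in M9, of which 4.20 could. Subtracting that background in all libraries gave -2.33. An antisense gene, Gm20496, overlaps exons of both Psmb8 and Tap2.

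Tap2, the partner of Tap1 in the transporter, was the third gene that fell. Its level was 18.2, 26.1, 32.7 and 18.2 CPM in the p53-driven tumors. It was 4.31, 4.03, 8.76, 4.19 and 10.8 CPM in the Myc-knockin tumors, again without overlap. Its log2 fold change was -1.89 with a standard error of 0.40 (edgeR adjusted p = 0.0301). This was the least firm of the 3 calls. The value was -1.75 without the libraries with satellite reads, with an edgeR adjusted p of 0.0522, -1.79 without M351 with an adjusted p of 0.0546, and -1.69 without M624 with 0.0535. Without F325, F331 or F368 it was -1.84, -1.69 and -2.03, with edgeR adjusted p values of 0.0960, 0.115 and 0.0918. Without M624 and M664 together it was -2.10 and passed.

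Tap1 did not pass the test, though its groups did not overlap either. The p53-driven tumors had 29.6, 27.0, 19.9 and 19.6 CPM. The Myc-knockin tumors had 4.92, 10.3, 17.5, 18.9 and 14.7 CPM, so that M624 and the lowest p53-driven tumors were close. The log2 fold change was -0.84 with a standard error of 0.37 (edgeR adjusted p = 0.174), and the single-gene exact permutation test gave a two-sided p of 0.0159, the smallest that 5 against 4 tumors allow. In M351, 8 reads of Tap1 stood against 6.15 expected from background, and without the libraries with satellite reads the fold change was -0.38.

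B2m had the highest level per kilobase of exon in both groups. The p53-driven tumors held 576, 863, 617 and 824 CPM. The Myc-knockin tumors held 169, 416, 338, 264 and 370 CPM, all below. The log2 fold change was -1.21 with a standard error of 0.35 (edgeR adjusted p = 0.0630; two-sided exact permutation p = 0.0159). DESeq2 and limma-voom called it, and so did edgeR without the libraries with satellite reads, at a log2 fold change of -1.25 (adjusted p = 0.0447). Without M624 and M664 the value was -1.16 (edgeR adjusted p = 0.110). B2m shares no exon with another gene, and its counts were never below 275.

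The heavy chains H2-K1 and H2-D1 behaved differently from their light chain, and their result depended on which Myc-knockin libraries were read. H2-K1 stood at 180, 258, 188 and 146 CPM in the p53-driven tumors. In the Myc-knockin tumors with satellite reads it was 36.9 CPM in M351, 89.7 CPM in M408 and 55.0 CPM in M9. In M624 and M664 it was 178 and 301 CPM. The first 3 tumors lay below every p53-driven tumor, and the other 2 lay within or above them. Over all tumors the log2 fold change was -0.54 with a standard error of 0.54 (edgeR adjusted p = 0.555). Without M624 and M664 it was -1.59 and passed the test (edgeR adjusted p = 0.0481), but it turned to 0.30 when the libraries with satellite reads were left out (edgeR adjusted p = 0.576). limma-voom with quality weights, which weighs libraries unequally, called it lower at -1.66. The part of library quality in these values was not tested.

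The second heavy chain gene, H2-D1, did not pass the test in edgeR. Its levels were 386, 478, 301 and 327 CPM in the p53-driven tumors and 53.6, 134, 158, 195 and 469 CPM in the Myc-knockin tumors. M664 alone reached into the p53-driven range. The log2 fold change of -0.88 (standard error 0.51, edgeR adjusted p = 0.294) became -1.45 without M664 (adjusted p = 0.0605), -1.64 without both M624 and M664 (adjusted p = 0.0566) and only -0.12 without the satellite-rich libraries (adjusted p = 0.864). Limma-voom with quality weights called it lower at -1.94 (limma adjusted p = 0.0148). Reads of these genes can be shared with related class I genes: 6.81% of the 76-base windows of the H2-D1 transcript and 1.42% of those of H2-K1 occurred in another gene, chiefly other class I genes.

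Erap1 and Psmb9 did not pass the test, and their groups overlapped. Erap1 was at 25.3, 39.2, 47.4 and 29.5 CPM in the p53-driven and 13.5, 36.3, 15.1, 18.7 and 21.2 CPM in the Myc-knockin tumors, with M408 alone inside the p53-driven range. Its log2 fold change was -0.74 with a standard error of 0.34 (edgeR adjusted p = 0.188). Of the 22 reads of Erap1 in M351 and the 19 in M9, 8.17 and 9.05 could be expected from background. Its exons overlap those of Cast on the opposite strand by 834 bases. Psmb9, which replaces Psmb6, was the lowest of the 10 genes. It was at 5.53, 8.17, 5.80 and 2.07 CPM in the p53-driven tumors and 3.08, 2.01, 7.17, 2.86 and 2.98 CPM in the Myc-knockin tumors. Every Myc-knockin tumor was inside the p53-driven range except M408, just under it, at a log2 fold change of -0.64 with a standard error of 0.56 (edgeR adjusted p = 0.495). Its 5 reads in M351 and 9 reads in M9 stood against 4.11 and 4.55 expected from background. Psmb9 and Tap1 overlap by 212 bases on opposite strands.

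Nlrc5, the activator of class I genes, was the only one of the 10 with a positive fold change. It was even across the p53-driven tumors, at 15.4, 15.3, 12.8 and 16.1 CPM. In the Myc-knockin tumors it was 15.4 CPM in M351, 17.8 CPM in M408, 45.4 CPM in M9, 44.4 CPM in M624 and 34.4 CPM in M664. M408, M9, M624 and M664 were above every p53-driven tumor, M408 by the least, and M351 was inside their range. The log2 fold change was 1.08 with a standard error of 0.37 (edgeR adjusted p = 0.0949). Without the libraries with satellite reads it was 1.44 and passed the test (edgeR adjusted p = 0.0164), whereas without M624 and M664 it was 0.83 and did not (edgeR adjusted p = 0.194). DESeq2 called it higher. Of the 25 reads in M351 and the 57 in M9, 9.53 and 10.6 could be expected from background.

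**Figure D2:**
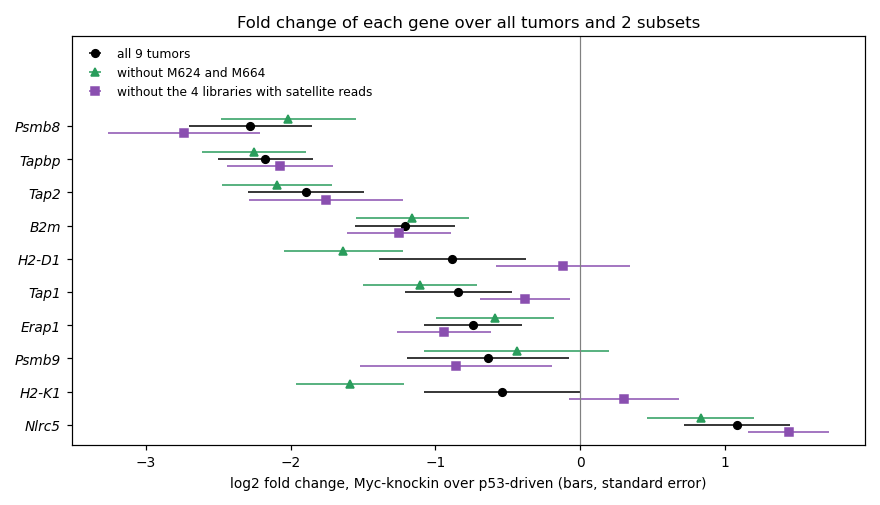
Log2 fold change (Myc-knockin over p53-driven, x axis) of the 10 genes with its standard error, from edgeR over all 9 tumors (circles), without M624 and M664 (triangles) and without the 4 libraries with satellite reads (squares). All genes but H2-K1 and Nlrc5 were below 0 in all 3, H2-D1 by only 0.12 without the libraries with satellite reads. H2-K1 moved from -1.59 to 0.30, and Nlrc5 was above 0 in all 3.

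Compared per kilobase of exon, the order of the genes ran over a wide range. In the p53-driven tumors the mean was 837 CPM per kilobase for B2m, 145 for H2-D1, 65.7 for H2-K1 and 38.3 for Tapbp. The other 6 followed at 11.2 for Psmb8, 6.29 for Tap2, 4.86 for Erap1, 4.39 for Tap1, 1.75 for Nlrc5 and 1.47 for Psmb9. In the Myc-knockin tumors the first 4 kept their places, at 362, 78.3, 45.0 and 8.45, and Nlrc5 moved up to the fifth with 3.71. Psmb8 was at 2.38 there, beside Erap1 at 2.88 and Tap1 at 2.42. In the p53-driven tumors no neighbors in this order overlapped from B2m down to Psmb8, whereas Psmb8, Tap2, Erap1 and Tap1 overlapped each with the next, and so did Nlrc5 and Psmb9. In the Myc-knockin tumors B2m stood above H2-D1 in all tumors, H2-K1 and Tapbp were apart by less than 0.1 between their closest tumors, and all other neighbors overlapped.

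Ratios within a tumor do not depend on the scaling between libraries, and 5 were compared. The ratio of Psmb8 to its constitutive counterpart Psmb5, in counts per kilobase on the log2 scale, was -1.69, -0.45, -1.38 and -0.95 in the p53-driven tumors. It was -2.58, -2.86, -1.91, -5.56 and -3.24 in the Myc-knockin tumors. All 5 were lower, with a mean difference of -2.11, with a two-sided exact permutation p of 0.0159 and an adjusted p of 0.0794 over the 5 ratios. That p is the smallest that 5 against 4 tumors allow, and 1 ratio alone at it cannot pass 0.05 after adjustment over 5. Part of the Psmb5 sequence is not its own: 39.3% of its 76-base windows occurred elsewhere, chiefly in Gm3375. M624, the lowest tumor, had 1434 reads of Psmb5 and 114 of Psmb8, and without it the difference was -1.53. It was -1.33 when both M624 and M664 were left out and -3.47 when the satellite-rich libraries were.

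No other ratio separated the groups. Psmb9 to Psmb6 differed by -0.60 (two-sided exact permutation p = 0.444, adjusted 0.741) and Psmb10 to Psmb7, the third inducible pair, by 0.37 (exact permutation p = 0.683, adjusted 0.762). Tap1 to Tap2 was higher by 0.98 in the Myc-knockin tumors, at 0.48 ± 0.78 (SD, n = 5) against -0.50 ± 0.58 (SD, n = 4), with an exact permutation p of 0.0794 and an adjusted p of 0.198. The ratio of H2-K1 with H2-D1 to B2m was -2.55, -2.55, -2.29, -1.18 and -0.59 in the Myc-knockin tumors, again in the order M351, M408, M9, M624, M664, and -1.66, -1.88, -1.99 and -2.44 in the p53-driven tumors. M624 and M664 were thus above, and M351 and M408 below, every p53-driven tumor, and the mean difference of 0.16 had an exact permutation p of 0.762. It turned to -0.47 without M624 and M664, as did Psmb10 to Psmb7, to -0.62. Leaving out the satellite-rich libraries instead moved them to 1.22 and 1.98.

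**Figure D3:**
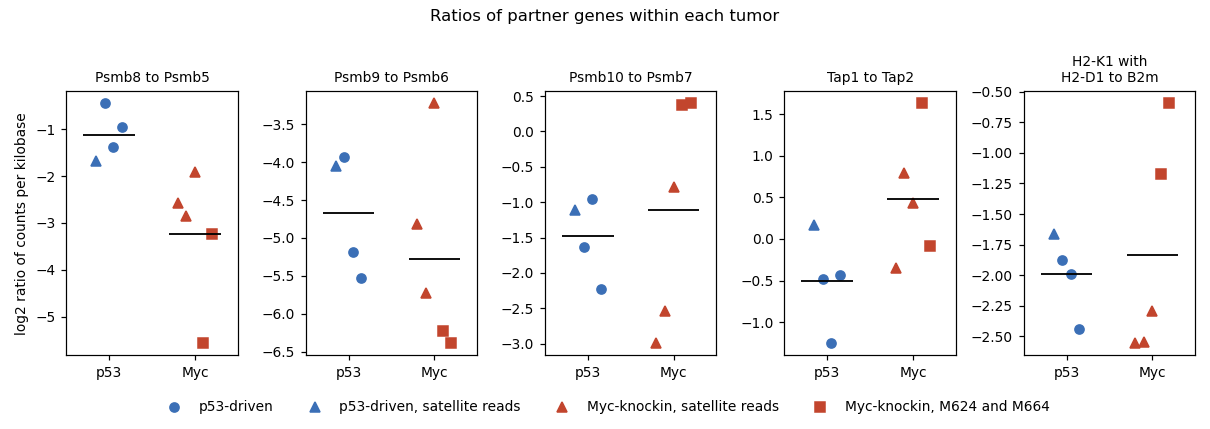
Log2 ratio of counts per kilobase for 5 pairs of partner genes in each tumor, p53-driven (left) and Myc-knockin (right) in each panel, with group means as lines and a separate axis per panel; symbols mark the libraries with satellite reads (triangles) and M624 and M664 (squares). Psmb8 to Psmb5 is lower in all 5 Myc-knockin tumors, and in the panels of Psmb10 to Psmb7 and of heavy chains to B2m the squares lie above the other tumors.

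The rest of the class I pathway showed few calls. Of the other class I heavy chains, 11 of the 19 listed were tested; 7 were lower and 4 higher, with a median log2 fold change of -0.31, and edgeR called 0. In that list 2 had an unadjusted p under 0.05, DESeq2 called 1 and limma-voom 2. With the 4 satellite-rich libraries left out edgeR called 1 lower and 3 higher of 13 tested, when 27.9% of all genes were called. Leaving out M624 and M664 gave 2 of 10 called, both lower (4.61% of all genes). The nonclassical H2-M3, which presents formylated peptides, did not overlap, at 3.21 ± 1.28 CPM (SD, n = 5) against 7.29 ± 1.65 CPM (SD, n = 4), with a log2 fold change of -1.19 (edgeR adjusted p = 0.122). H2-Q10 had the largest fold change of the list, 2.10 (edgeR adjusted p = 0.276), on at most 10 reads in 7 of the tumors. H2-Q7 reached 87.4 CPM in M624 against 1.82 to 18.8 CPM in the other 8 tumors.

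All 5 peptide loading partners were lower, with a median of -0.60, and edgeR called 0 of them, with 2 at an unadjusted p under 0.05, 1 called by DESeq2 and 2 by limma-voom. Pdia3, which encodes ERp57, the disulfide isomerase bound to tapasin, came nearest. It was at 958, 1182, 860 and 1192 CPM in the p53-driven and 465, 542, 470, 409 and 448 CPM in the Myc-knockin tumors, without overlap, at a log2 fold change of -1.17 (edgeR adjusted p = 0.0501). The chaperones Calr and Canx, the lectins of the loading complex and of class I folding, were at -0.60 and -0.14. Of the 5 partners edgeR called 2 without the satellite-rich libraries, both lower (27.9% of all genes), and 0 without M624 and M664. Among 7 further peptidases 1 was called: Thop1, a cytosolic oligopeptidase that degrades class I peptides, rose. Its level was 11.1, 8.01, 12.9 and 13.7 CPM in the p53-driven and 34.5, 38.5, 21.5, 72.2 and 111 CPM in the Myc-knockin tumors, with a log2 fold change of 2.30 and a standard error of 0.47 (edgeR adjusted p = 0.0287). It was also called without M624 and M664, at 1.54 (edgeR adjusted p = 0.0365). The call was lost when any 1 p53-driven tumor was left out, at adjusted p-values of 0.0628 (F187), 0.101 (F325), 0.104 (F331) and 0.115 (F368) in edgeR, and when libraries were scaled by size alone (edgeR adjusted p = 0.135).

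The third inducible catalytic subunit, Psmb10, did not follow Psmb8. It was at 9.87, 10.7, 13 and 6.81 CPM in the p53-driven tumors, and at 3.08, 5.49, 10.4, 45.4 and 46.0 CPM in the Myc-knockin tumors. M624 and M664 were the 2 highest of the 9 and M351 and M408 the 2 lowest, at a log2 fold change of 1.17 (edgeR adjusted p = 0.317). The activator subunits Psme1 and Psme2 were at -0.22 and -0.14. Over all 9 tumors edgeR, DESeq2 and limma-voom each called 0 of these 3 genes, with 0 at an unadjusted p under 0.05 in each. Leaving out the satellite-rich libraries, edgeR called 1 of the 3 higher (27.9% of all genes). Of the constitutive counterparts, Psmb5, Psmb6, Psmb7 and Psme3 were at 0.20, 0.17, 0.08 and 0.29. None of the 4 was called by any of the 3 tools or had an unadjusted p under 0.05 in edgeR.

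Of 14 tested interferon signaling genes, 10 were lower and 2 were called, both receptor chains. Ifngr2, the signaling chain of the interferon-gamma receptor, was at 76.6, 95.1, 94.0 and 92.5 CPM in the p53-driven and 20.3, 42.7, 56.6, 19.7 and 35.5 CPM in the Myc-knockin tumors. Its log2 fold change was -1.37 (edgeR adjusted p = 0.0421). Ifnar2, a chain of the type I receptor, was at 43.7 ± 3.79 CPM (SD, n = 4) against 23.6 ± 3.70 CPM (SD, n = 5), a log2 fold change of -0.89 (edgeR adjusted p = 0.0492). Neither group overlapped with the other for either chain, but without M624 and M664 edgeR called 0 of the list, with 7 at an unadjusted p under 0.05. It also called 0 when F187, F325, F331, F368, M351, M624 or M664 was left out alone. Those fits had 3 to 7 at an unadjusted p under 0.05. Upper-quartile normalization and scaling by library size alone each left 0 called as well. Leaving out M408 or M9 alone, edgeR called 2 (847 of 15472 and 1588 of 15315 genes). With the satellite-rich libraries left out it called 3 of 14, all lower (27.9% of all genes). Ifngr2 was among those 3, at -1.74 (edgeR adjusted p = 0.0173). DESeq2 and limma-voom called both chains over all 9 tumors. The transcription factor Irf1 was at -0.84 (edgeR adjusted p = 0.175). Interferon-gamma itself had at most 3 reads in any tumor and Ifnb1 at most 2.

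Of 11 enhanceosome and NF-kappaB genes, which encode the factors that bind the X2 core, the CCAAT box and the kappaB site printed above and their partners, 5 were lower and 6 higher, with a median of 0.27, and edgeR called 0. There were 2 at an unadjusted p under 0.05, and DESeq2 and limma-voom called 1 each. Of the 11, edgeR called 2 lower and 1 higher without the satellite-rich libraries (27.9% of all genes), and 0 without M624 and M664. Rel, an NF-kappaB subunit, was at 13.3 ± 3.67 CPM (SD, n = 5) against 27.3 ± 2.85 CPM (SD, n = 4) without overlap, a log2 fold change of -1.06 (edgeR adjusted p = 0.0543).

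**Figure D4:**
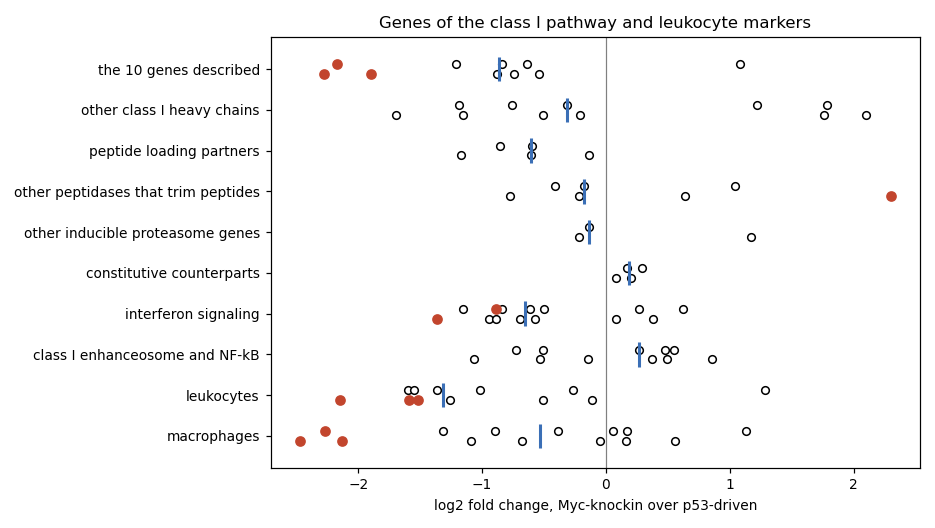
Log2 fold change (Myc-knockin over p53-driven, x axis) of every tested gene in the 10 genes described, 7 further lists of the pathway and 2 lists of leukocyte markers; each circle is a gene, filled where edgeR called it, and bars are list medians. Filled circles lie below 0 in the 10 genes, interferon signaling, leukocytes and macrophages, and Thop1 is filled above 0.

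Marker sums of leukocytes and osteoblasts did not overlap between the groups, and those of macrophages and endothelial cells did. Leukocyte markers summed to 161 to 452 CPM in the Myc-knockin and 528 to 1090 CPM in the p53-driven tumors, without overlap; 11 of 12 were lower and 3 called (Lcp1, Was and Rac2). Macrophage markers summed to 475 to 1414 and 1040 to 1737 CPM, 9 of 14 were lower and 3 were called (Cd68, Csf1r and Tyrobp). Osteoblast markers, those of the lineage in which Cre is expressed, summed to 3610 to 41254 and 65016 to 141076 CPM, with all 8 lower and Bglap called. Over all genes edgeR called 3.00% lower. It called 0 leukocyte markers when F187, F325, F331, F368, M351 or M624 was left out alone. Without F325, F331 or F368 it also called 0 macrophage and 0 osteoblast markers. Scaling by library size alone left 0 leukocyte and 0 macrophage markers called. Endothelial markers summed to 102 to 518 and 343 to 477 CPM, with 4 of 8 lower and 0 called by edgeR, DESeq2 or limma-voom and 1 at an unadjusted edgeR p under 0.05. None of the 15 cytotoxic lymphocyte markers passed the filter on low counts. They had 19 to 84 reads in all per library, of which 1.62 to 54.6 could be expected from background, so CD8+ T cells and natural killer cells were barely visible at this depth in either group. Over all 9 tumors, dendritic cell and B cell markers were more often higher than lower in the Myc-knockin tumors, with medians of 0.34 and 1.79. Skeletal muscle markers had a median of -0.56 and the 1 tested red cell gene was at 1.04. Without the 4 libraries with satellite reads the medians of dendritic cells, B cells and skeletal muscle were -0.66, 1.22 and -2.52. The largest dendritic cell and B cell sums were in M9, at 68.5 and 25.5 CPM. Red cell markers summed to 216 and 783 CPM in M624 and M664 against at most 31.7 CPM elsewhere. Over all tumors the dendritic cell, B cell, skeletal muscle and red cell lists had 4, 2, 6 and 1 tested genes, with 0 called by any of the 3 tools. There were 0, 1, 0 and 0 at an unadjusted edgeR p under 0.05. Without the libraries with satellite reads, when 27.9% of all genes were called, edgeR called 4 of 5 tested red cell genes higher. It also called 1 of 4 dendritic cell genes higher, 1 of 6 skeletal muscle genes lower and 0 of 3 B cell genes.

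Divided by the summed leukocyte markers of the same tumor, 9 of the 10 genes overlapped between the groups. The log2 ratio of Tapbp to leukocyte markers was -3.17 ± 0.47 (SD, n = 5) in the Myc-knockin group and -2.33 ± 0.53 (SD, n = 4) for p53-driven tumors. That of Psmb8 was -5.12 ± 0.64 and -4.32 ± 0.82, and that of B2m 0.21 ± 0.43 and 0.03 ± 0.67. Nlrc5 alone was apart, from -4.45 to -1.86 in the Myc-knockin and from -6.41 to -5.04 in the p53-driven tumors. The leukocyte sums were lower in every Myc-knockin tumor, at 161 to 452 against 528 to 1090 CPM, so dividing by them raises the Myc-knockin ratios of any gene. Nlrc5 overlapped between the groups in CPM, and its separation here depends on that divisor. B2m, Tap1, Tap2, Tapbp and Psmb8 were apart in CPM and overlapped only after the division. The share of all genes that overlapped after it was not counted. The part of leukocyte content in the lower levels of Tapbp, Tap2 and Psmb8 was not tested.

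The 10 genes did not share a single pattern over the 9 tumors. Likeness was measured as the root mean square difference of log2 CPM, centered per gene, where smaller is more alike. H2-K1 and H2-D1 were each other's nearest member, at 0.39, with H2-D1 the 8th nearest of 15364 genes to H2-K1 and H2-K1 the 7th nearest to H2-D1. Tap2 was the 12th nearest gene to Tapbp (0.43), and Tapbp the 10th nearest to Psmb8 (0.44). For Psmb9 and Nlrc5 the nearest member, Tap1 in both cases, ranked 1335 and 7677. Among 9530 genes outside the 10 with a mean of at least 10 CPM, the 5 nearest to the mean profile of the members were Pea15a at 0.17, Crat at 0.18, Bcl2l2 at 0.21, and Snx3 and Tspan14, both at 0.23. The single nearest gene was Tmem181a for H2-K1, Rab11fip5 for H2-D1, Snx3 for B2m, Smo for Tap1, Shc2 for Tap2, Ctsa for Tapbp, Src for Psmb8, Dusp22 for Psmb9, Rell1 for Erap1 and Nprl3 for Nlrc5.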

How the data were processed

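RNA from whole GEMM tumors was sequenced with paired ends after oligo-dT enrichment and preparation with a stranded kit. The authors used Trim Galore for trimming, STAR for alignment to the mm10 build and featureCounts for counting. They deposited raw, unnormalized counts of 55367 genes in 9 tumors. Whether counting used the strand, and how multi-mapping reads were treated, is not given in the sources used here. The columns of the table carry names, not sample numbers, with F for p53-driven and M for Myc-knockin. The study's supporting data list F187, F325, F331 and F368 under p53-driven cell lines, and M408 and M624 under Myc-knockin cell lines. M351, M9 and M664 were placed by the letter M alone. Nothing pairs a column with a numbered sample. That tumors came from separate mice is not stated for each, and p-values measure the spread between these samples.

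Counts were tested in R 4.3.3 with edgeR 4.0.16 (glmQLFit and glmQLFTest, TMM, filterByExpr with a minimum count of 10), Benjamini-Hochberg adjustment over all 15365 tested genes, and calls at an adjusted p under 0.05 with a fold change over 1.5. This differs from the study's tool, DESeq2, which was run as an alternative (version 1.42.0), as was limma-voom with quality weights (limma 3.58.1). The fit recovered the direction of changes planted in simulated counts. Within-tumor ratios used counts plus 0.5 per kilobase of exon, from GENCODE M21 on the same build, and single values were compared by exact permutation of the group labels, two-sided (scipy 1.17.1). Genomic background was estimated per kilobase from 1824 chemosensory receptor genes. The 11 satellite-repeat genes were gene models with at least 0.01% of the counts in M9 and over 20 times the share, in all 4 affected libraries, of any other library. Pathway and marker lists were written by hand; genes outside the 10 are named where they were called, form a ratio, or were the highest, the most changed or without overlap in their list, the last chosen after the values were seen. The 10 genes and all lists were chosen with earlier results of these data known. The floor of 3 counts covers counting error only.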

Additional observations from a re-analysis of the deposited data

How the results depend on the processing

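The number of the 10 genes called was 3 over all tumors with edgeR and TMM. It was 0 after scaling by library size alone, 5 with DESeq2 and 6 with limma-voom. At an adjusted p under 0.1 with a fold change over 1.5 it was 5, where 14.6% of all genes were called. Both counts of 5 include Nlrc5, which was higher. Leaving out 1 tumor at a time gave 0 to 3. At the threshold of at least 10 counts in every tumor Psmb8, Psmb9, Tap1 and Tap2 were not tested. Of the rest B2m and Tapbp were called lower and Nlrc5 higher, where 1316 of 9283 tested genes were called. The sign of each fold change held under the 19 alternatives, except H2-K1, which turned to 0.30 without the 4 libraries with satellite reads. Fold changes ranged from -2.44 to -2.0 for Tapbp, -2.74 to -1.87 for Psmb8, -2.21 to -1.69 for Tap2, -1.49 to -1.05 for B2m and 0.62 to 1.44 for Nlrc5. For H2-K1 and H2-D1 they ranged from -1.66 to 0.30 and from -1.94 to -0.12. Calls over all genes moved with the same settings, from 809 to 136 by library size alone, 2670 with DESeq2, 1663 with limma-voom, 494 with all genes of at least 1 count, 1316 with a minimum of 10 counts per tumor, 4595 without the libraries with satellite reads, and 5 to 1588 when 1 tumor was left out. The share of calls that were higher was 43.0% over all tumors, 64.5% with upper-quartile normalization and 58.0% with DESeq2. The cause was not tested.

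Within tumors, the difference of Psmb9 to Psmb6 turned to 0.085 without M624 and M664, that of Psmb10 to Psmb7 to -0.62, and that of heavy chains to B2m to -0.47. Leaving out 1 tumor at a time moved Psmb10 to Psmb7 from -0.0049 to 0.84, heavy chains to B2m from -0.15 to 0.34, Psmb8 to Psmb5 from -2.44 to -1.53 and Tap1 to Tap2 from 0.70 to 1.21. With 7 tumors the smallest two-sided exact permutation p is 0.0571 and with 5 tumors 0.2. No paired analysis was possible because the columns of the table carry no replicate numbers. Depth limits Psmb9, Psmb8, Tap1 and Tap2 most in M351, with 5 to 8 reads each where 3.80 to 6.15 were expected from background.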
